A study of Saccharomyces cerevisiae with 16 samples.

Results

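Transcript levels of Σ1278b carrying *MSS11* on a multicopy plasmid (2μ-*MSS11*) were set directly against those of Σ1278b without *MSS11* (*mss11*), the widest range of *MSS11* dose in one strain. Arrays were chosen by title, which gave 2 arrays of 2μ-*MSS11* and 2 of *mss11*, 4 of the 16 arrays of the series. Σ1278b is a laboratory strain of *Saccharomyces cerevisiae* that invades agar and forms filaments. Both groups were labelled MATα with the alleles *ura3-52* and *trp1Δ::hisG*, *leu2Δ::hisG* as well as *his3Δ::hisG*. The 2μ-*MSS11* group held the plasmid YEpLac195-*MSS11* with the chromosomal *MSS11* in place. The *mss11* group held the empty plasmid YEpLac195 and, per the methods, has *LEU2* in place of *MSS11*. All were grown in 5 ml of synthetic dropout medium with 2% glucose at 30 °C. The labels place the harvest at entry into stationary phase and the methods in mid-exponential growth, so the growth phase is not settled. The Σ1278b wild type with the empty plasmid, 2 arrays of the same set, did not enter the difference and is given for its level only.

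Mss11 is a transcriptional activator that acts with Flo8 at the promoters of *FLO11* and other flocculin genes. Flocculins are mannoproteins of the outer cell wall that bind cells to one another or to surfaces, and Flo11 is the one needed for agar invasion and pseudohyphal growth. The signalling routes that feed into *FLO11* are the filamentous growth MAP kinase cascade, ending in Ste12 and Tec1, and the cAMP and protein kinase A pathway, ending in Flo8 and the repressor Sfl1.

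The probe set of *MSS11* followed the titles. Its log2 intensity was 13.50 and 13.58 on the 2μ-*MSS11* arrays and 3.01 and 3.03 on the *mss11* arrays, against 7.50 and 8.34 in the wild type. The log2 difference between 2μ-*MSS11* and *mss11* was 10.52 (standard error 0.30, adjusted p = 1.20e-07). The mean level of the deleted gene, 3.02, is taken here as background, so that a difference from or to a level at or under it is a lower bound. *MF(ALPHA)1*, which encodes α-factor, stood at 15.16 and 15.13 with 2μ-*MSS11* and at 15.12 and 15.01 in *mss11*. The labels give MATα, whereas the strain table of the study gives the parent as MAT**a**. The **a**-factor genes *MFA1* and *MFA2* lay under background on all 4 arrays. Among 7 **a**-specific genes none was called, although all had a positive difference. *AGA2*, a subunit of the **a**-agglutinin, was at 4.47 and 4.62 with 2μ-*MSS11* and under background in *mss11* (2.19 and 2.16). Its difference of 2.36 had an adjusted p of 0.454 in the fit over all groups, in which the S288c pair with 2μ-*MSS11* stood at 11.20 and 3.28. It was called with the 4 arrays alone (adjusted p = 0.00615), with the wild type added (0.00158) and without that S288c pair (2.1e-06). *STE2*, another **a**-specific gene, was above background in both groups (6.44 and 6.56 with 2μ-*MSS11*, 5.02 and 5.09 in *mss11*). Its difference of 1.44 was not called in the fit over all groups (adjusted p = 0.531) but was with the 4 arrays alone (0.00729). Of 4 α-specific genes, *SAG1* was higher (0.69, adjusted p = 0.0165) and *STE3* lower (-0.63, adjusted p = 0.0468). Both lost the call with any 1 array left out. The marker gene *LEU2* was lower with 2μ-*MSS11* (13.31 and 13.59) than in *mss11* (14.55 and 14.43), with 13.32 and 13.48 in the wild type, although all groups are labelled as deleted for *leu2*.

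In 2μ-*MSS11*, 254 probe sets were higher and 430 lower than in *mss11* at an adjusted p under 0.05 (limma, Benjamini-Hochberg over 5498 probe sets of 5449 genes), which is 4.62% and 7.82% of those tested and 12.4% together. A probe set past this threshold is referred to as called. The shares of 4.62% and 7.82% are the base for the counts of called members in the gene lists below. The median log2 difference of the called probe sets was 0.84 for the higher and -0.76 for the lower, against 0.0035 over all tested. At a log2 difference of at least 1 there were 106 higher and 126 lower, and at 2 or more there were 38 higher and 15 lower, so that lower probe sets were the more numerous at 1 and higher ones at 2. All called probe sets had arrays that did not overlap between the groups, as had 79.5% of all probe sets. The number called rested on every array. It was 275 and 64 without 2μ-*MSS11* replicates 1 and 2, and 123 and 36 without *mss11* replicates 1 and 2. The spread was pooled over all 8 groups of the series, in which the S288c pair with 2μ-*MSS11* lay furthest apart (root mean square SD 0.168 for 2μ-*MSS11* and 0.102 for *mss11* in Σ1278b, against 0.857 for that pair). Without that pair 2498 probe sets were called, a setting chosen after seeing the data.

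**Figure D1:**
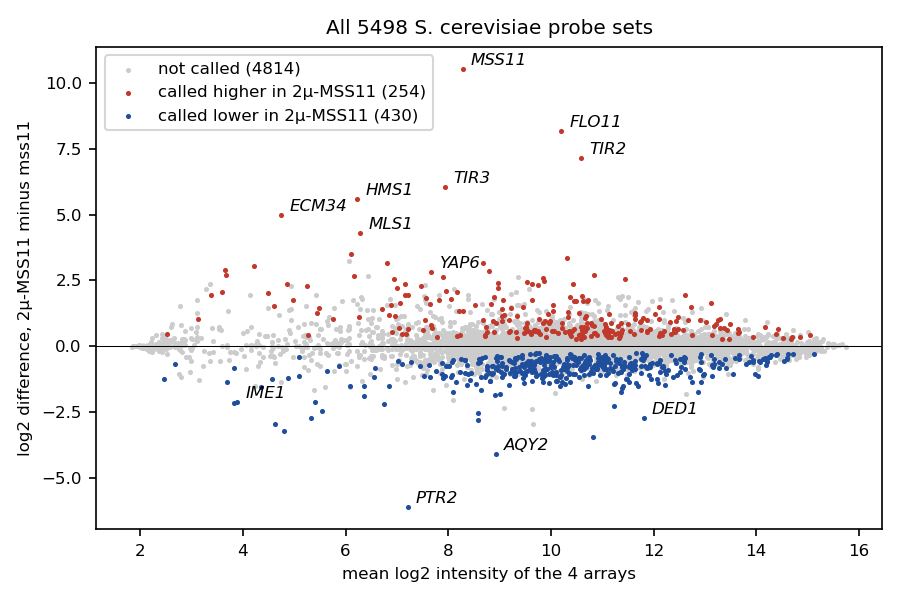
Log2 difference (2μ-*MSS11* minus *mss11*, y axis) against the mean log2 intensity of the 4 arrays (x axis) for 5498 probe sets, with called probe sets in red (254 higher) and blue (430 lower) and the others in grey. *MSS11*, *FLO11* and *TIR2* lie furthest above 0, and *PTR2* and *AQY2* furthest below.

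Of 27 transcription factors of filamentous growth, 8 were higher (29.6%) and 3 lower (11.1%) with 2μ-*MSS11*, *MSS11* itself among the higher, against 4.62% and 7.82% over all probe sets. The call of *MSS11* was set by the design, and the study had already reported *HMS1*, *YAP6* and *CMR3* as lower in *mss11*. The share is therefore partly built in and only describes the list. The median over the list was 0.25. Without 2μ-*MSS11* replicate 1 or *mss11* replicate 1 there were 6 higher, and without replicate 2 of either group 4. At most 1 was lower with any array left out. *HMS1*, a basic helix-loop-helix factor that promotes pseudohyphal growth, had log2 intensities of 8.81 and 9.22 with 2μ-*MSS11* and 3.15 and 3.71 in *mss11*, with the wild type in between at 6.92 and 7.13. Its difference was 5.59 (standard error 0.48, adjusted p = 0.000300). *YAP6*, a bZIP factor, stood at 9.09 and 9.07 with 2μ-*MSS11* and 6.20 and 6.35 in *mss11*, a difference of 2.80 (standard error 0.16, adjusted p = 2.94e-05), and the wild type again lay between them at 8.28 and 8.14. The putative zinc finger gene *CMR3* followed the same order, with 10.10 and 10.24 with 2μ-*MSS11*, 7.72 and 7.82 in *mss11*, and 9.38 and 9.36 in the wild type (difference 2.41, adjusted p = 0.000267). *HMS1*, *YAP6* and *CMR3* kept their calls whichever of the 4 arrays was left out.

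The other members of that list, named after their values were seen, were *MGA1* (1.77), *TOS8* (1.72), *PHD1* (1.55) and *NRG2* (1.28) among the higher. *PHD1* encodes an activator of pseudohyphal growth and *NRG2* a glucose-dependent repressor. The lower members were *HMS2*, related to heat shock factors, *SFL1*, the repressor of *FLO11* (-1.05), and *STE12*, the end of the MAP kinase cascade (-0.59). *HMS2* had 4.67 and 3.97 with 2μ-*MSS11* against 6.50 and 7.03 in *mss11*. Its difference of -2.44 (adjusted p = 0.0411) was lost whichever array was left out (adjusted p from 0.0905 to 0.239). *FLO8*, which encodes the partner of Mss11, was not called, with 9.85 and 9.66 with 2μ-*MSS11* and 10.43 and 10.45 in *mss11* (difference -0.69, adjusted p = 0.566). Neither was *TEC1* (difference 0.71, adjusted p = 0.106). The spread behind the *FLO8* value was pooled over all groups of the series. Among them is the pair titled *FLO8* overexpressed, described below, whose arrays lay far apart for this gene. The lack of a call therefore does not show that *FLO8* was unchanged.

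Upstream of these factors, none of 16 genes of the filamentous growth MAP kinase pathway was called in the fit over all groups. Over all probe sets 4.62% were higher and 7.82% lower in that fit. The differences ran from -0.88 to 0.65, with a median of -0.057. With the 4 arrays alone, *CLN1* (0.65, adjusted p = 0.0402) and *DIG2* (-0.64, adjusted p = 0.0310) were called. Both, as well as *KSS1* and *OPY2*, were called without the S288c pair with 2μ-*MSS11*. These settings called 2220 and 2498 of 5498 probe sets. In the cAMP and protein kinase A pathway, 1 of 15 was higher (6.67%) and 3 were lower (20.0%), against 4.62% and 7.82% over all probe sets. The higher one, *GPR1*, encodes the glucose-sensing receptor and differed by 0.48 (adjusted p = 0.00876). The lower ones were *RAS1* (-0.90, adjusted p = 0.0406), *TPK3*, a catalytic subunit of the kinase (-0.60, adjusted p = 0.0264), and *CDC25*, the exchange factor of Ras (-0.44, adjusted p = 0.0255). *RAS1* and *CDC25* lost their calls with any 1 array omitted (highest adjusted p of 0.200 and 0.198). *GPR1* and *TPK3* kept theirs only without 2μ-*MSS11* replicate 1 (adjusted p up to 0.0822 and 0.192 without each of the others).

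Of the flocculin genes, 3 of the 4 measured were higher with 2μ-*MSS11* (75.0%, against 4.62% over all probe sets) and none lower. Their median difference was 2.22, with a range from 0.78 to 8.17. *FLO11* stood at 14.19 and 14.39 with 2μ-*MSS11* and at 6.15 and 6.09 in *mss11*, with the wild type between them at 11.21 and 9.73. The difference of 8.17 (standard error 0.50, adjusted p = 3.06e-05) corresponds to a 287.6-fold ratio of intensities. *FLO1*, which encodes the main flocculation adhesin, was at 4.82 and 5.21 with 2μ-*MSS11* and under background in *mss11* (2.33 and 2.32) and the wild type (2.34 and 2.35). Its difference of 2.69 (adjusted p = 0.00390) is a lower bound. The probe set of *FLO9* gave 10.43 and 10.60 with 2μ-*MSS11* against 8.75 and 8.79 in *mss11* (difference 1.74, adjusted p = 0.00220). As the transcripts of *FLO1*, *FLO5* and *FLO9* are nearly identical, probe sets of this group may not tell them apart, and *FLO5* is not measured on its own here. By gene-specific qPCR the study did not find *FLO5* and *FLO9* to change as its arrays had shown. The value of the *FLO9* probe set is therefore not a measure of *FLO9* alone. *FLO10* was not called, at 7.38 and 7.84 with 2μ-*MSS11* and 6.67 and 7.00 in *mss11* (difference 0.78, adjusted p = 0.184). By qPCR, however, the study found *FLO10* to change in the pattern of *FLO11*, to a smaller extent. The lack of a call here is thus not evidence that *FLO10* does not respond. The calls of *FLO11*, *FLO1* and *FLO9* held without each of the 4 arrays.

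Among 10 measured genes that resemble flocculins or mucins, 3 were higher (30.0%, against 4.62% over all probe sets) and none lower (median 1.29). *ECM34*, a gene of unknown function, had 6.74 and 7.72 with 2μ-*MSS11* against 2.29 and 2.23 in *mss11*, which is under background, and 3.86 and 4.74 in the wild type. The difference of 4.97 (standard error 0.56, adjusted p = 0.00167) is a lower bound. *PRM7*, a pheromone-regulated gene, has a pair of probe sets. One gave 5.60 and 5.91 with 2μ-*MSS11* and 2.60 and 2.79 in *mss11* (difference 3.07, adjusted p = 0.00142, a lower bound), and the other 9.88 and 10.28 with 2μ-*MSS11* and 7.80 and 7.95 in *mss11* (difference 2.21, adjusted p = 0.00689). Both were higher. The wild type lay close to *mss11* on both, at 2.78 and 3.04 and at 7.95 and 8.18. *YHR213W*, a fragment that resembles *FLO1*, stood at 5.19 and 4.99 with 2μ-*MSS11* and at background in *mss11* (2.19 and 2.22). Its difference of 2.88 (adjusted p = 0.0295) is a lower bound, and it was not called whichever array was left out. The second probe set of *PRM7* lost its call without 2μ-*MSS11* replicate 2 or *mss11* replicate 2 (adjusted p = 0.0666 and 0.0605).

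**Figure D2:**
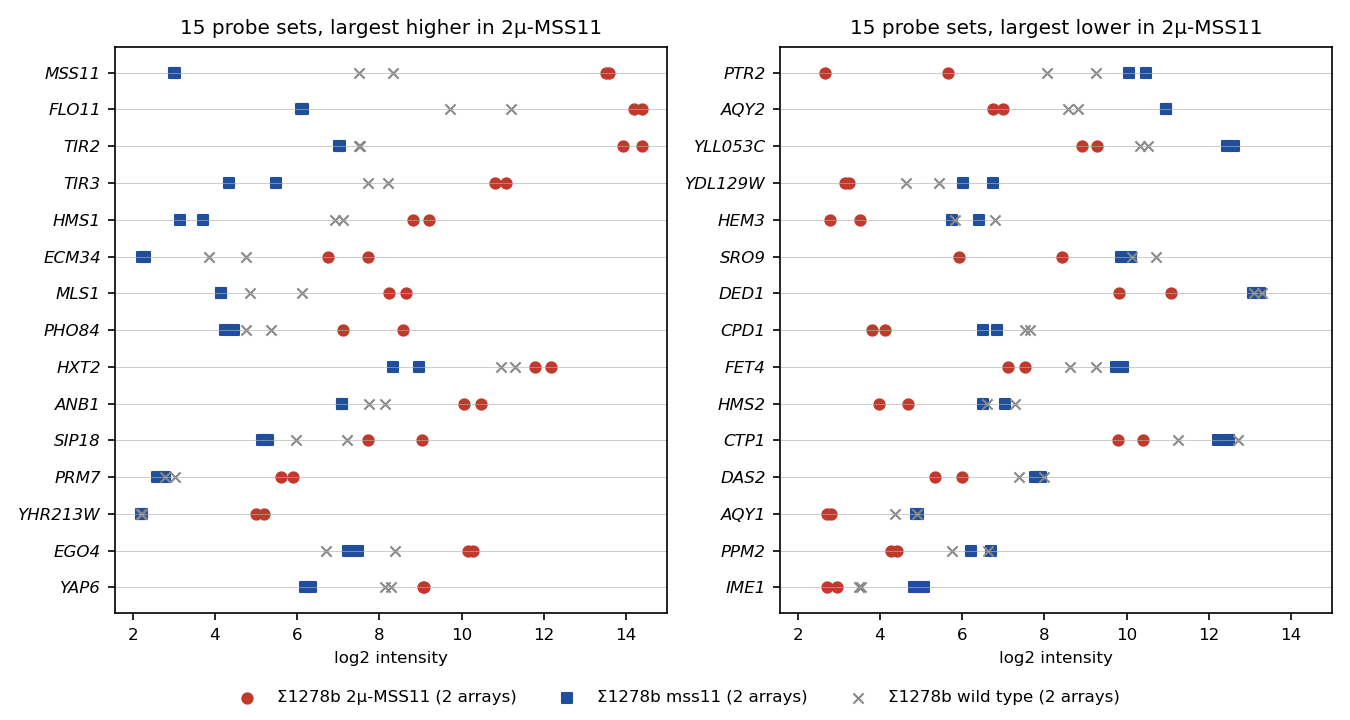
Log2 intensity on each array (x axis) of the 15 called probe sets with the largest increase (left) and decrease (right), with 2μ-*MSS11* as red circles, *mss11* as blue squares and the wild type as grey crosses, 2 arrays each. The red and blue points do not overlap for any of these genes, and the wild type lies between them for *FLO11*, *HMS1*, *TIR3*, *AQY2* and *IME1* but beside *mss11* for *TIR2*, *PRM7* and *YHR213W*.

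The Srp1/Tip1 mannoproteins are serine- and alanine-rich cell wall proteins induced by cold or by lack of oxygen. Of 7 measured members, 3 were higher (42.9%, against 4.62% over all probe sets) and none lower, with a median of 1.51. *TIR2* reached 13.93 and 14.38 with 2μ-*MSS11* against 7.03 and 7.03 in *mss11*, and the wild type, at 7.50 and 7.54, was close to *mss11*. The difference was 7.13 (standard error 0.22, adjusted p = 1.47e-07). *TIR3*, by contrast, was spread over the range, with 10.81 and 11.08 with 2μ-*MSS11*, 4.35 and 5.48 in *mss11*, and 8.20 and 7.72 in the wild type (difference 6.03, standard error 0.60, adjusted p = 0.000851). *TIR4* was at 8.49 and 9.39 with 2μ-*MSS11* and 7.00 and 7.31 in *mss11* (difference 1.78, adjusted p = 0.0223). *DAN1* was under background in *mss11* (2.02 and 2.01) and uneven with 2μ-*MSS11* (2.72 and 4.34), and its difference of 1.51 was not called (adjusted p = 0.123). *TIR4* kept its call only without 2μ-*MSS11* replicate 1, and had adjusted p = 0.166, 0.124 and 0.123 without 2μ-*MSS11* replicate 2, *mss11* replicate 1 and *mss11* replicate 2. *TIR4* and *TIR2* are neighbouring genes. Of 13 measured seripauperins, related small proteins with many near-identical copies, 2 were higher (15.4%, against 4.62% over all probe sets). These were *PAU8* (1.14) and *PAU14* (1.01), both lost without 2μ-*MSS11* replicate 2 or either *mss11* replicate.

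Of 27 other cell wall genes, 3 were higher (11.1%) and 2 lower (7.41%, against 7.82% over all probe sets), and the median was 0.028. Without 2μ-*MSS11* replicate 1 or *mss11* replicate 1, 1 was higher, without replicate 2 of either group none was, and no member was lower with any array left out. *NCA3*, a member of the SUN family, was at 11.10 and 11.19 with 2μ-*MSS11* and 8.68 and 8.44 in *mss11*, while the wild type lay below both at 7.88 and 8.17 (difference 2.58, adjusted p = 0.00689). Its relative *SUN4*, which acts in septation, had the opposite direction, with 9.64 and 9.48 with 2μ-*MSS11* and 10.92 and 11.04 in *mss11* (difference -1.42, adjusted p = 0.0152). *PIR1*, a wall protein linked to glucan, was also lower (-1.35, adjusted p = 0.0204), and the transglycosylase gene *CRH1* was higher (1.04, adjusted p = 0.0399). Genes of daughter cell separation had none of 10 higher and 3 lower (30.0%, against 7.82% over all probe sets), with a median of -0.47. These were *DSE2*, an endoglucanase-like gene (-1.12, adjusted p = 0.0400), *DSE3* (-0.85, adjusted p = 0.0220) and the glucanase gene *DSE4* (-0.72, adjusted p = 0.00650). The chitinase gene *CTS1* was not called (-0.22, adjusted p = 0.505). *DSE4* kept its call except without *mss11* replicate 2 (adjusted p = 0.0524), *NCA3* lost it without replicate 2 of either group (adjusted p = 0.0629 for 2μ-*MSS11* and 0.0766 for *mss11*), and *SUN4*, *PIR1*, *CRH1*, *DSE2* and *DSE3* lost theirs with any 1 array omitted (highest adjusted p of 0.231).

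**Figure D3:**
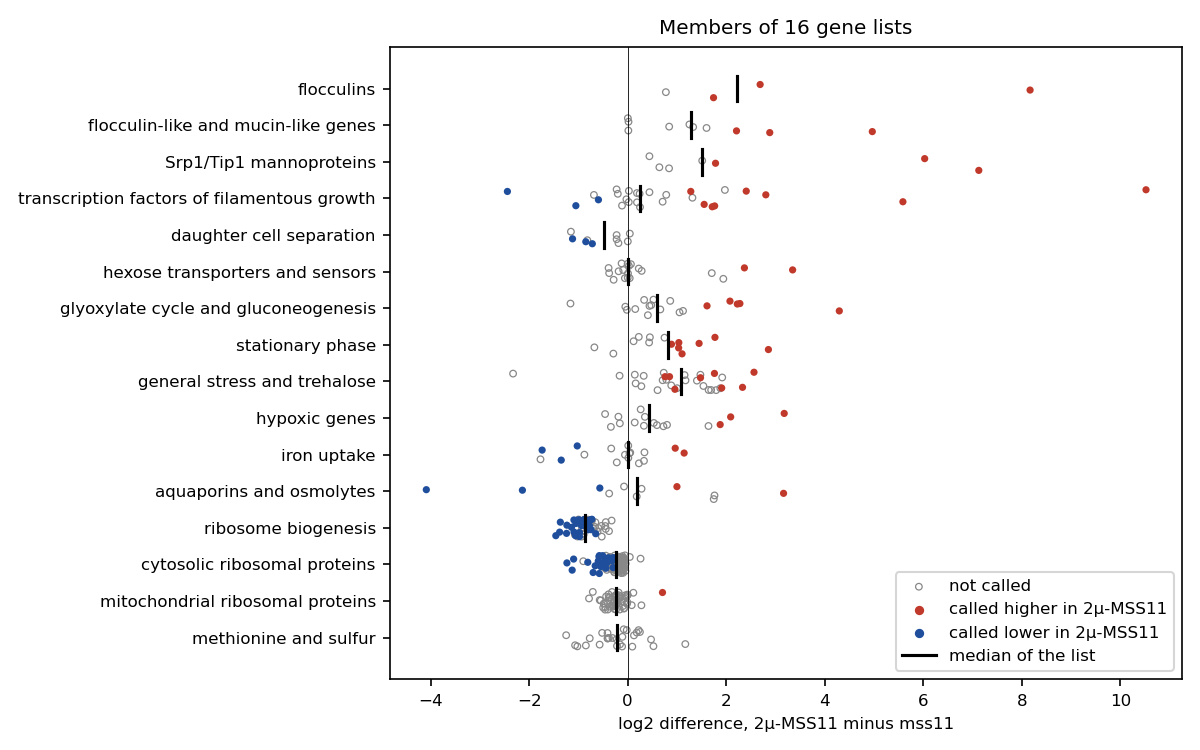
Log2 difference (2μ-*MSS11* minus *mss11*, x axis) of each measured member of 16 gene lists (rows), with called members in red (higher) or blue (lower), the others as open grey circles, and a black bar at each list's median. Every ribosome biogenesis gene lies left of 0, and flocculin and Srp1/Tip1 genes lie right of 0.

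*PTR2*, the di- and tripeptide transporter, had 5.66 and 2.67 with 2μ-*MSS11* against 10.05 and 10.47 in *mss11*, and 9.26 and 8.06 in the wild type. The 2μ-*MSS11* replicates thus lay far apart, but both were below *mss11*, and the difference of -6.10 (standard error 0.76, adjusted p = 0.00278) was called without each of the 4 arrays, while its value ran from -4.60 to -7.59 over the settings tried. The aquaporin genes were both lower with 2μ-*MSS11*. *AQY2* was at 6.76 and 7.00 with 2μ-*MSS11* and 10.97 and 10.97 in *mss11*, with 8.81 and 8.56 in the wild type (difference -4.09, standard error 0.77, adjusted p = 0.0130). The pooled spread of *AQY2* included uneven pairs outside this comparison. These were *FLO8* overexpressed by title (9.26 and 7.19) and S288c with 2μ-*MSS11* (9.38 and 6.80). With the 4 arrays alone its adjusted p was 0.00577, and with the wild type added 0.00158. *AQY1*, the spore aquaporin, was at 2.71 and 2.81 with 2μ-*MSS11*, at background, and 4.92 and 4.87 in *mss11* (difference -2.14, adjusted p = 0.000350, a lower bound on the decrease). The gene next to *AQY2*, *YLL053C*, showed 8.92 and 9.27 with 2μ-*MSS11* against 12.44 and 12.62 in *mss11* (difference -3.44, adjusted p = 0.00889). It is annotated as homologous to aquaporin genes and can be read with *AQY2* as one gene in some strains, and how far both probe sets measure one transcript was not tested. *AQY2* lost its call whichever array was left out (adjusted p from 0.0576 to 0.101), and *YLL053C* kept it only without 2μ-*MSS11* replicate 1 (adjusted p up to 0.0915), while *AQY1* kept it throughout.

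*IME1*, the master regulator of entry into meiosis, was among the 5 probe sets with the smallest adjusted p. It was at 2.72 and 2.95 with 2μ-*MSS11*, at background, at 4.83 and 5.06 in *mss11*, and between them at 3.54 and 3.49 in the wild type. The difference of -2.11 (standard error 0.13, adjusted p = 2.94e-05) is a lower bound on the decrease. Of the 13 genes of the meiotic list, 1 was higher (7.69%, against 4.62% over all probe sets). This was *HOP1*, a protein of the meiotic chromosome axis. It was at 4.46 and 4.23 with 2μ-*MSS11* and at background in *mss11* (2.41 and 2.38). Its difference of 1.95 (adjusted p = 0.000913) is a lower bound. *IME2*, which Ime1 activates, was not called (0.57, adjusted p = 0.644). *IME1* and *HOP1* were called without each of the arrays.

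Further large decreases were of genes with unrelated roles. *DED1*, an RNA helicase of translation initiation, was at 11.08 and 9.82 with 2μ-*MSS11* and 13.06 and 13.25 in *mss11* (difference -2.71, adjusted p = 0.00390). *SRO9*, an RNA-binding protein, had 8.43 and 5.92 with 2μ-*MSS11*, an uneven pair, and 9.86 and 10.10 in *mss11* (difference -2.81, adjusted p = 0.0232). *FET4*, a low-affinity iron transporter, was at 7.12 and 7.54 with 2μ-*MSS11* and 9.75 and 9.93 in *mss11* (difference -2.51, adjusted p = 0.00689). The remaining genes of the 15 largest decreases were *YDL129W* (-3.19), *HEM3* of heme synthesis (-2.93), *CPD1*, a cyclic nucleotide phosphodiesterase (-2.70), *CTP1*, the mitochondrial citrate carrier (-2.26), *DAS2* (-2.19) and *PPM2*, a tRNA-modifying methyltransferase (-2.13). *DED1* and *FET4* lost their calls without *mss11* replicate 2 (adjusted p = 0.0520 and 0.0766), and *SRO9* and *HEM3* without 2μ-*MSS11* replicate 2 or either *mss11* replicate (adjusted p up to 0.152 and 0.131). *YDL129W* and *PPM2* lost theirs without replicate 2 of either group (adjusted p up to 0.0884 and 0.0629), and *CPD1* and *CTP1* lost theirs with any of the 4 omitted (0.219 and 0.195 at most).

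Genes that glucose represses were among the increases. In the glyoxylate cycle and gluconeogenesis, which make sugar from acetate, 5 of 18 were higher (27.8%, against 4.62% over all probe sets). None was lower, and the median was 0.59. Wild type replicate 2 stood above replicate 1 on this list. *MLS1*, malate synthase, had 8.23 and 8.64 with 2μ-*MSS11* against 4.14 and 4.14 in *mss11*, and 4.85 and 6.12 in the wild type (difference 4.30, standard error 0.42, adjusted p = 0.000730). *ICL1*, isocitrate lyase of the same cycle, stood at 8.57 and 8.64 with 2μ-*MSS11* and 6.38 and 6.27 in *mss11* (difference 2.28, adjusted p = 0.0296). *FBP1*, which encodes fructose-1,6-bisphosphatase, had 4.39 and 4.88 with 2μ-*MSS11* and was under background in *mss11* (2.62 and 2.50). Its difference of 2.08 (adjusted p = 0.000131) is a lower bound. *ATO2*, a putative ammonium or acetate transporter, differed by 2.23 (adjusted p = 0.0275), and *ACH1*, an acetyl-CoA transferase, by 1.74 (adjusted p = 0.00133). Among 20 genes of glycolysis and fermentation 1 was called, the alcohol dehydrogenase gene *ADH2*, a share of 5.0%, near the 4.62% higher over all probe sets. *ADH2* was at 7.19 and 7.67 with 2μ-*MSS11* and 6.13 and 6.37 in *mss11* (difference 1.19, adjusted p = 0.00706). *MLS1*, *FBP1* and *ACH1* were called without each of the arrays, while *ICL1* and *ATO2* lost their calls with any 1 omitted (highest adjusted p of 0.172 and 0.203), and *ADH2* kept its call only without 2μ-*MSS11* replicate 1 (adjusted p up to 0.0641).

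Of 19 hexose transporters and sensors, 2 were higher (10.5%, against 4.62% over all probe sets), and the median was 0.0066. *HXT2*, a high-affinity transporter, was at 12.19 and 11.79 with 2μ-*MSS11*, 8.33 and 8.96 in *mss11*, and nearer to 2μ-*MSS11* in the wild type (11.29 and 10.96), a difference of 3.35 (standard error 0.67, adjusted p = 0.0157). *HXT4* was at 11.55 and 11.67 with 2μ-*MSS11* and 9.38 and 9.10 in *mss11*, and the wild type was near *mss11* (9.27 and 9.91), with a difference of 2.37 (adjusted p = 0.00876). *HXT7* had a difference of 1.71 that was not called (adjusted p = 0.0608). *PHO84*, the high-affinity phosphate transporter, was at 8.58 and 7.11 with 2μ-*MSS11* and 4.26 and 4.46 in *mss11* (difference 3.49, adjusted p = 0.0222), while *PHO89*, the sodium-coupled one, was lower, at 1.80 and 1.90 with 2μ-*MSS11* and 2.84 and 3.34 in *mss11*, all of it near background. In iron uptake, 2 of 17 were higher (11.8%) and 3 lower (17.6%), against 4.62% and 7.82% over all probe sets, with a median of 0.012. Among the lower were *FET3* (-1.74, adjusted p = 0.0440) and *FTR1* (-1.35, adjusted p = 0.0406), which form the high-affinity uptake complex. *HXT2*, *PHO84* and *FTR1* lost their calls with any 1 array omitted (highest adjusted p of 0.0992, 0.134 and 0.269), *HXT4* without replicate 2 of either group (adjusted p up to 0.0941), and *FET3* unless 2μ-*MSS11* replicate 1 was the one left out (adjusted p up to 0.295).

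Of 16 hypoxic genes, 3 were higher (18.8%, against 4.62% over all probe sets) and none lower (median 0.44). Wild type replicate 2 stood above replicate 1 on this list. *ANB1*, the hypoxic form of translation factor eIF5A, had 10.07 and 10.48 with 2μ-*MSS11* and 7.10 and 7.10 in *mss11* (difference 3.18, adjusted p = 0.0128). *PDR11*, a sterol importer, had 8.71 and 9.31 with 2μ-*MSS11* and 6.81 and 7.03 in *mss11* (difference 2.09, adjusted p = 0.00103). *CYC7*, the hypoxic cytochrome c, differed by 1.88 (adjusted p = 0.0129). *ROX1*, the repressor of hypoxic genes, was not called (-0.46, adjusted p = 0.170), and none of 23 ergosterol genes was. *PDR11* kept its call without each of the arrays, *ANB1* only without 2μ-*MSS11* replicate 1 (adjusted p up to 0.107), and *CYC7* lost it whichever was left out (adjusted p up to 0.102).

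Of 30 genes of general stress and trehalose, 8 were higher (26.7%, against 4.62% over all probe sets) and none lower. A positive difference was seen for 28 (median 1.08). *TSL1*, a subunit of trehalose synthase, had 12.70 and 12.77 with 2μ-*MSS11* and 10.32 and 10.02 in *mss11* (difference 2.56, adjusted p = 0.0251), and *GSY1*, glycogen synthase, differed by 2.33 (adjusted p = 0.0284). Of 14 stationary phase genes, 7 were higher and none lower (median 0.82), led by *EGO4* at 10.27 and 10.16 with 2μ-*MSS11* and 7.48 and 7.24 in *mss11* (difference 2.86, adjusted p = 0.0131). *SPG5*, a regulator of the proteasome, differed by 1.10 (adjusted p = 0.00549). Of 59 ribosome biogenesis genes, 30 were lower (50.8%, against 7.82% over all probe sets) and none higher. All 59 had a negative difference, with a median of -0.88 and a range from -1.46 to -0.33. *RPA49*, a subunit of RNA polymerase I, was at 10.79 and 10.33 with 2μ-*MSS11* and 11.91 and 11.97 in *mss11* (difference -1.38, adjusted p = 0.0120). Of 122 cytosolic ribosomal protein genes, 24 were lower (19.7%, against 7.82% over all probe sets) and none higher (median -0.23). Among the lower were *RPL22B* (-1.23, adjusted p = 0.00876) and *RPS0B* (-1.13, adjusted p = 0.00471). Of 55 genes listed as mitochondrial ribosomal proteins, 1 was higher (1.82%, under the 4.62% over all probe sets) and none lower (median -0.24). The higher one, *MRP8*, is a gene of unknown function despite its name. It differed by 0.70 (adjusted p = 0.0389), a call that no setting with 1 array left out kept.

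Several lists also moved in the wild type with the replicate. Relative to the mean of *mss11*, the median of the stress list was 0.95 and 1.04 on the 2μ-*MSS11* arrays, and -0.17 and 0.89 on the wild-type arrays. That of ribosome biogenesis was -0.82 and -0.89 on the 2μ-*MSS11* arrays, and 0.062 and -0.56 on the wild-type arrays. The glyoxylate and gluconeogenesis list stood at 0.68 and 0.56 on the 2μ-*MSS11* arrays, and at 0.040 and 0.40 on the wild-type arrays. The hypoxic list stood at 0.45 and 0.48 on the 2μ-*MSS11* arrays, and at 0.20 and 0.45 on the wild-type arrays. In these lists wild type replicate 2 thus stood nearer to 2μ-*MSS11* than replicate 1 did, both with the same *MSS11* genotype. The part of this difference between wild-type replicates in the counts above was not tested. With 1 array left out, between 0 and 7 ribosome biogenesis genes, 1 and 11 ribosomal protein genes, 0 and 2 stress genes and 0 and 2 stationary phase genes were called. Of the genes named above, *TSL1*, *GSY1* and *EGO4* lost their calls with any 1 array omitted (highest adjusted p of 0.165, 0.188 and 0.114), *SPG5* and *RPS0B* kept theirs unless *mss11* replicate 2 was left out (adjusted p = 0.0605 and 0.0547), and *RPA49* and *RPL22B* only without 2μ-*MSS11* replicate 1 (adjusted p up to 0.109 and 0.0899).

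**Figure D4:**
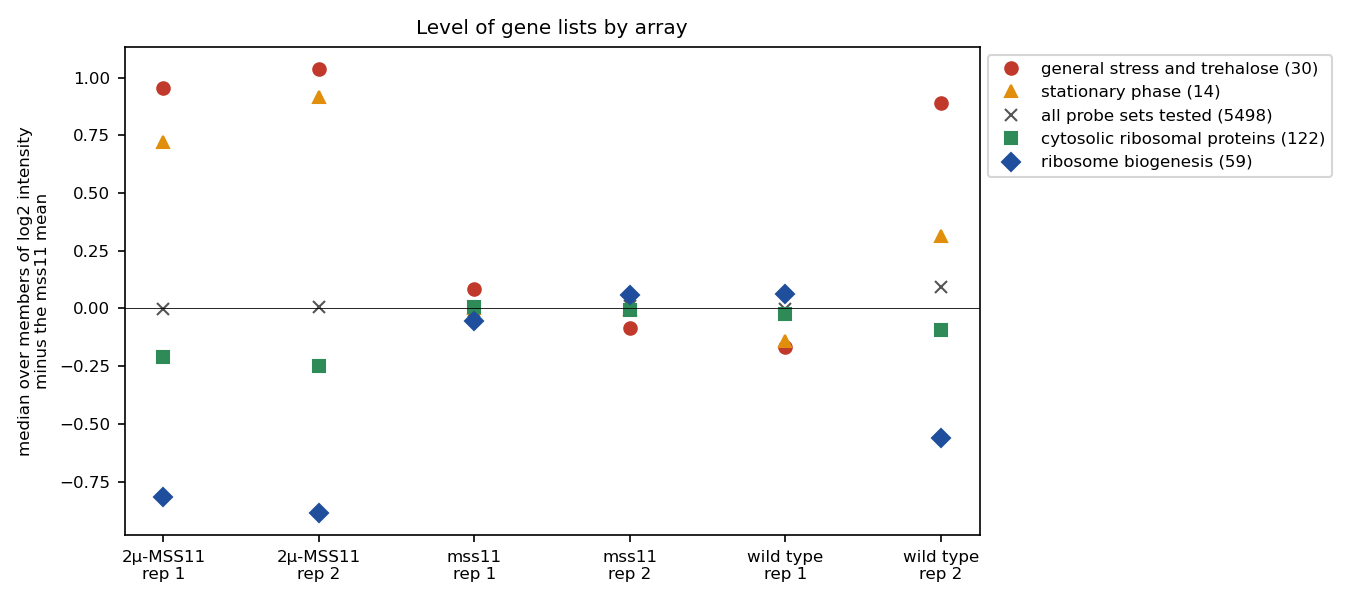
Median over a list's members of the log2 intensity on an array minus the *mss11* mean of the same gene (y axis), for 6 Σ1278b arrays (x axis), with the number of members in the key. Stress genes stand at 0.95 and 1.04 and ribosome biogenesis genes at -0.82 and -0.89 on the 2μ-*MSS11* arrays, and wild type replicate 2 lies toward them.

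Over all called probe sets, the wild type lay nearer to *mss11* than to 2μ-*MSS11*. Its mean was between the groups for 240 of the 254 higher and 330 of the 430 lower probe sets, and nearer to *mss11* for 212 and 409. The median position was 30.6% of the way from *mss11* to 2μ-*MSS11* for the higher and 16.9% for the lower. Wild type replicate 2 was closer to the 2μ-*MSS11* side than replicate 1 for 232 of the higher and 351 of the lower. These positions are descriptions, since the probe sets were selected on the same 4 arrays.

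Genes that lie side by side were called together in few cases. The R64 annotation holds 4758 neighbouring pairs with both genes tested. In 13 of them both genes were among the 231 called with a log2 difference of at least 1. Whether this is more than unrelated positions would give was not tested. Of the 13 pairs, 12 had the same direction, 4 higher and 8 lower. They include *TIR4* with *TIR2*, and the run of *YLL054C* (-1.49), *YLL053C* (-3.44) and *AQY2* (-4.09). *PTR2* lies beside *SRP40*, a nucleolar protein gene that was also lower (-1.48), and *SIP18*, a hydrophilin gene of osmotic stress (3.16), beside *PAI3*, an inhibitor of the vacuolar protease (1.58). These pairs were picked after their values were seen. For *SIP18* the 2μ-*MSS11* arrays were uneven, at 9.05 and 7.72 against 5.29 and 5.14 in *mss11*. Its difference ran from 2.50 to 3.83 over the settings tried, and its call was lost whichever array was left out.

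The series holds a similar range for the partner gene, arrays titled *FLO8* overexpressed and *flo8* deleted, in Σ1278b. They share no array with the range of *MSS11*. Their plasmid labels contradict their titles, and the probe set of *FLO8* gave 15.71 and 12.90 on the arrays titled *FLO8* overexpressed and 11.06 and 11.16 on those titled *flo8* deleted, which is not a background level. Groups are therefore called by title, and every direction in this range rests on the titles. *FLO11* was at 14.79 and 14.67 on the arrays titled *FLO8* overexpressed and 6.25 and 5.34 on those titled *flo8* deleted. There, 22 probe sets were higher and 22 lower, 0.4% each and 0.8% together of those tested (limma, with 397 at an unadjusted p under 0.05). Of the 44, 21 were also called in the *MSS11* range, 9 higher and 12 lower in both and 0 in opposite directions, which is 3.07% of the calls in the *MSS11* range and 47.7% of those in the *FLO8* range. Were the titles exchanged, all 21 would run in opposite directions. The count in the *FLO8* range was 13 and 18 without *FLO8* overexpressed replicates 1 and 2, and 54 and 9 without *flo8* deleted replicates 1 and 2.

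Of the 11 factors of filamentous growth called in the *MSS11* range, *HMS1* and *YAP6* were also called in the *FLO8* range. *FLO11* differed by 8.17 in the *MSS11* range and 8.94 in the *FLO8* range (adjusted p = 3.33e-05 in the *FLO8* range). In the same order, *HMS1* differed by 5.59 and 6.57 (adjusted p = 0.000255), *TIR3* by 6.03 and 4.69 (adjusted p = 0.00627), and *YAP6* by 2.80 and 2.06 (adjusted p = 0.000390). Among the lower ones were *IME1* (-2.11 in the *MSS11* range and -2.39 in the *FLO8* range, adjusted p = 3.33e-05 in the *FLO8* range) and, in the same order, *AQY1* (-2.14 and -1.23, adjusted p = 0.0174), *AQY2* (-4.09 and -4.89, adjusted p = 0.0203) and *YLL053C* (-3.44 and -3.96, adjusted p = 0.0136). The remainder, chosen after their values were seen, were *EGO4*, *CIN5*, *TSA2*, *YNL195C* and *SPG4* among the higher, and *DSE4*, *MIG2*, *MIG3*, *PAD1*, *AIM33*, *RGS2*, *UPS3* and *YGR035C* among the lower. *CIN5*, a bZIP factor related to *YAP6*, differed by 1.97 in the *MSS11* range and 2.24 in the *FLO8* range. The glucose repressor genes *MIG2* (-0.49 in the *MSS11* range and -0.76 in the *FLO8* range) and *MIG3* (-1.18 in the *MSS11* range and -1.26 in the *FLO8* range) were lower in both.

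Other genes differed between the ranges. The contrast of the ranges was called for 66 probe sets, 1.2% of those tested, of which 20 had a larger value in the *MSS11* range and 46 a smaller one. *TIR2* differed by 7.13 in the *MSS11* range and 0.27 in the *FLO8* range, and the contrast was 6.86 (standard error 0.31, adjusted p = 5.42e-06). *FLO9* (1.74 and -0.29, contrast adjusted p = 0.0291) and *MLS1* (4.30 and -0.077, adjusted p = 0.0237) likewise had a called increase in the *MSS11* range and a value near 0 or below in the *FLO8* range. *MLS1* was close to background there, at 3.28 and 3.88 for *FLO8* overexpressed and 3.27 and 4.05 for *flo8* deleted. Its small difference in that range is therefore uncertain. *FLO1* was under background on all 4 arrays of the *FLO8* range (2.08 to 2.12), where a difference could not be measured. The contrast was not called for *FLO11* (adjusted p = 0.676), *HMS1* (0.529), *TIR3* (0.491) or *PTR2* (0.0761), the last of which differed by -6.10 in the *MSS11* range and -1.71 in the *FLO8* range. The number of contrasts called was between 4 and 65 with 1 of the 8 arrays left out (65 and 6 without 2μ-*MSS11* replicates 1 and 2, 5 and 4 without those of *mss11*, 6 and 6 without those of *FLO8* overexpressed, and 42 and 5 without those of *flo8* deleted). After median centring it was 19, of which 11 were larger and 8 smaller in the *MSS11* range. The Σ1278b arrays of the *MSS11* set had a median log2 intensity of 10.17 to 10.28, against 11.53 to 11.56 in the *FLO8* range, and whether the sets were normalized together is not stated.

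**Figure D5:**
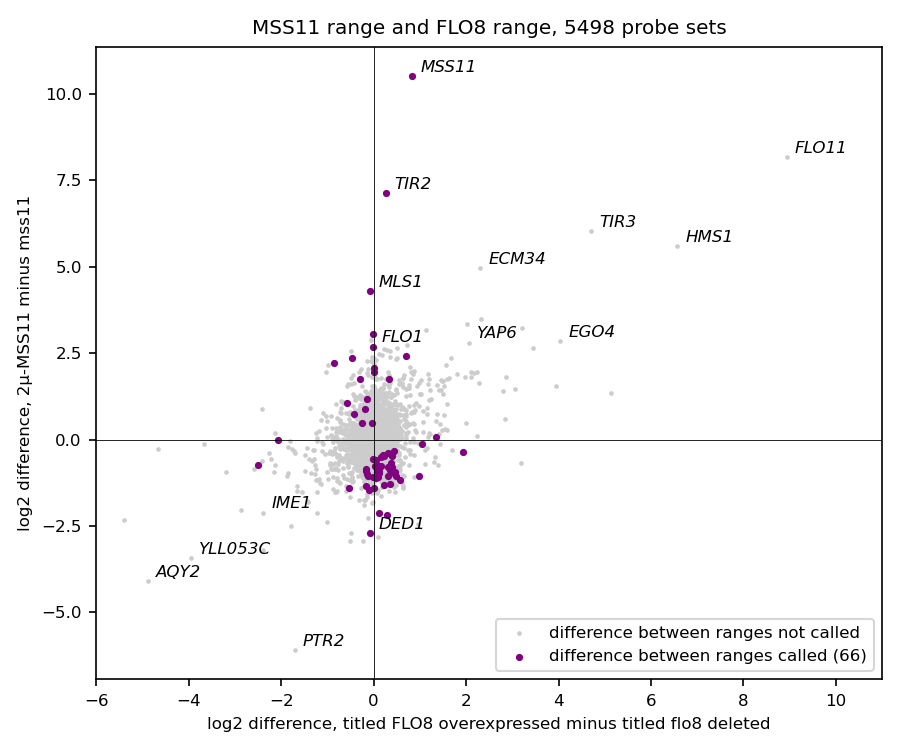
Log2 difference in the *MSS11* range (2μ-*MSS11* minus *mss11*, y axis) against that in the *FLO8* range (arrays titled *FLO8* overexpressed minus titled *flo8* deleted, x axis) for 5498 probe sets, with the 66 whose contrast was called in purple. *FLO11*, *TIR3*, *HMS1*, *AQY2* and *YLL053C* lie far out in both, and *MSS11*, *TIR2* and *MLS1* only on the y axis.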

How the data were processed

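Transcript levels were measured on Affymetrix Yeast Genome 2.0 arrays, of which 10928 probe sets hold 213 controls, 1747 annotated to another organism, 3470 with no gene annotation here and 5498 of *S. cerevisiae* (5449 genes), which were tested. The values deposited by the authors are intensity on a linear scale, already background-corrected and normalized between arrays. The methods name GCOS 1.4 and RMA, whereas the submitters' processing notes name GCRMA. The methods give more culture replicates than the 2 arrays per group used here. The titles call these biological replicates. No detection flags came with the values, and the number of arrays limits the precision.

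Intensities were taken to log2 with a floor of 1, which no value was under. A mean for each group was fitted on the 16 arrays of the series, which left 8 residual degrees of freedom beside 1.50 from the prior, with limma 3.58.1 in R 4.3.3, with Benjamini-Hochberg adjustment over 5498 probe sets and a threshold of 0.05. The scripts were tested on simulated data. Named genes were *MSS11*, the 15 called probe sets with the largest difference in each direction, up to 4 members of each list, the 3 smallest adjusted p, and genes named by the study. Members and lists were chosen with earlier results of these data known. Gene names came from the platform annotation and the R64 annotation of RefSeq. Alternatives covered the arrays in the fit, probe set filters, normalization, moderation, a replicate block and each array left out. No sequences were used here.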

Additional observations from a re-analysis of the deposited data

Results flagged for a closer look

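Of the probe sets named, 19 differed between the *MSS11* range (2μ-*MSS11* minus *mss11*) and the *FLO8* range (arrays titled *FLO8* overexpressed minus *flo8* deleted) by limma's test of the contrast itself. The value given for each is the difference in the *MSS11* range minus that in the *FLO8* range, on the log2 scale. Besides *MSS11* (9.69), the positive contrasts among cell wall and cell surface genes were *TIR2* (6.86), *PRM7* (3.07 and 3.06 for its probe sets), *FLO1* (2.71) and *FLO9* (2.03). Those among genes of carbon metabolism were *MLS1* (4.37), *HXT4* (2.84), *FBP1* (2.07), *ACH1* (1.405) and *ADH2* (1.32), and the remaining ones were *HOP1* (1.95) and *CMR3* (1.72). *FLO1*, *FBP1*, *HOP1* and the probe set of *PRM7* with the value 3.07 were under background on all 4 arrays of the *FLO8* range and in *mss11*, so that no difference could be measured in the *FLO8* range and their contrasts do not show that the ranges differ. *MLS1* was close to background on the arrays of the *FLO8* range (3.28, 3.88, 3.27 and 4.05), so its contrast is uncertain too. Exchanging the titles of the *FLO8* arrays would turn the sign of that range in every contrast.

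The negative contrasts were *DED1* (-2.63), *DAS2* (-2.47), *PPM2* (-2.24), *LEU2* (-1.53), *RPS0B* (-1.17) and *RPS14B* (-1.09). *LEU2* differed by -1.04 in the *MSS11* range and 0.48 in the *FLO8* range (contrast adjusted p = 0.00433). The adjusted p of the contrast was 5.42e-06 for *MSS11* and *TIR2* and up to 0.0485 among the others. The arrays of the *FLO8* range differ from those of the *MSS11* range in median intensity, and the part of normalization in these contrasts was not tested beyond the quantile and median-centred values given for their number.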

How the results depend on the processing

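Against 684 probe sets called between 2μ-*MSS11* and *mss11*, 2220 were called with the 4 arrays alone, 2743 with a variance weight per group, and 2498 without the S288c pair with 2μ-*MSS11*, a setting chosen after seeing the data. With a log2 difference of at least 1 also required there were 232. Other filters, normalizations and moderations gave from 458 to 702. With 1 array left out the count ran from 36 to 275. The lone array of a group was then assumed to vary like the other groups. With the replicate number as a block on 6 arrays, 56 were called. Nothing says that the numbers pair cultures, and the deviations of same-numbered 2μ-*MSS11* and *mss11* arrays had a correlation of 0.062. For the *FLO8* range, 975 were called with the variance weight against 44, and from 9 to 54 with 1 array left out. For the contrast of the ranges, against 66, there were 25 after quantile normalization (12 with a larger value in the *MSS11* range, 13 smaller), 19 after median centring and 2265 with the variance weight, and from 4 to 65 with 1 array left out. For the 94 named probe sets called, 397 of 1497 comparisons over 16 settings lost the call. None changed direction, but only quantile normalization and median centring could have turned a sign. The other settings kept both group means or left out 1 array of groups that did not overlap. The calls of 22 held without each of the 4 arrays. With 2 arrays a group and no detection flags, differences near the background of 3.02 are the least certain.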
